A study of Homo sapiens with 3 samples.

Results

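Cytochrome P450 genes were examined in RNA-seq libraries of HepG2, a line of human liver cancer cells in long use. Members were the gene rows with a primary chromosome as their reference and a gene name of the form CYP, a family number, a subfamily letter and a gene number. This rule took 56 of the 39320 gene rows present in all 3 tables, from 17 families, and used no measured value. According to RefSeq, 55 members are protein-coding and CYP2D7 is a transcribed pseudogene. The labels give 3 replicate libraries of wild-type (WT) HepG2 cells, with no transfection, treatment or second condition in the labels. No label says whether the libraries came from separate cultures, so the spread between them may be technical.

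The label was first checked against genes that define the cell type. HepG2 is known for secreting many hepatocyte proteins, yet 17 of a list of 20 hepatocyte genes were below 1 TPM in every library and 11 were listed at 0 in all 3, among them ALB (albumin), APOA1 and SERPINA1. TPM is a gene's RNA level per length, as a share of its library. The summed level of the list was 59.5 to 64.7 TPM, nearly all of it from CPS1, VTN and RBP4. The 10 genes of a housekeeping list were all at 10 TPM or more in each library. The epithelial list had 3 of 8 genes and the mesenchymal list 3 of 8 genes at 10 TPM or more in every library. The values below therefore hold for libraries labelled HepG2, and the part of cell identity in them was not tested. The tables give no counts, so no counting error could be given, and an exact 0 is reported only as a listed 0.

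Cytochromes P450 are heme enzymes that insert an oxygen atom into their substrates with electrons passed from a partner protein. Families CYP1 to CYP3 are known mainly for oxidizing drugs and other foreign compounds in the liver, and CYP4 for fatty acids and eicosanoids. The other families mostly make or break down sterols, bile acids, steroid hormones and vitamins A and D. In normal liver, CYP3A4, CYP2E1 and the CYP2C genes are known as abundant P450 transcripts.

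The P450 RNA of these libraries came mainly from enzymes of sterol and retinoid metabolism, and the drug-oxidizing genes of liver were low or listed at 0. The members summed to 177, 169 and 164 TPM in replicates 1, 2 and 3, a mean of 170 ± 6.77 TPM (SD, n = 3). CYP51A1 alone held 43.2% ± 1.46 of this sum (SD, n = 3). The 4 highest members, CYP51A1, CYP26B1, CYP2S1 and CYP1B1, held 75.5% ± 0.904 (SD, n = 3). The 41 members with a mean below 1 TPM added up to 5.15 TPM.

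At least 1 TPM in all 3 libraries was reached by 15 of 56 members, or 26.8%. Over all gene rows the share was 33.8%, and over protein-coding gene rows it was 59.5%. At least 10 TPM in all 3 libraries was reached by 3 members, or 5.36%, against 20.7% of all gene rows and 40.4% of protein-coding gene rows. By contrast, 17 members, or 30.4%, were listed at 0 in all 3 libraries, against 40.7% of all gene rows and 20.0% of protein-coding gene rows. The median member had a mean of 0.0669 TPM, the median of all gene rows was 0.0619 TPM and the median protein-coding gene row had 4.99 TPM. These shares describe 1 condition, and no test was applied to them.

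**Figure D1:**
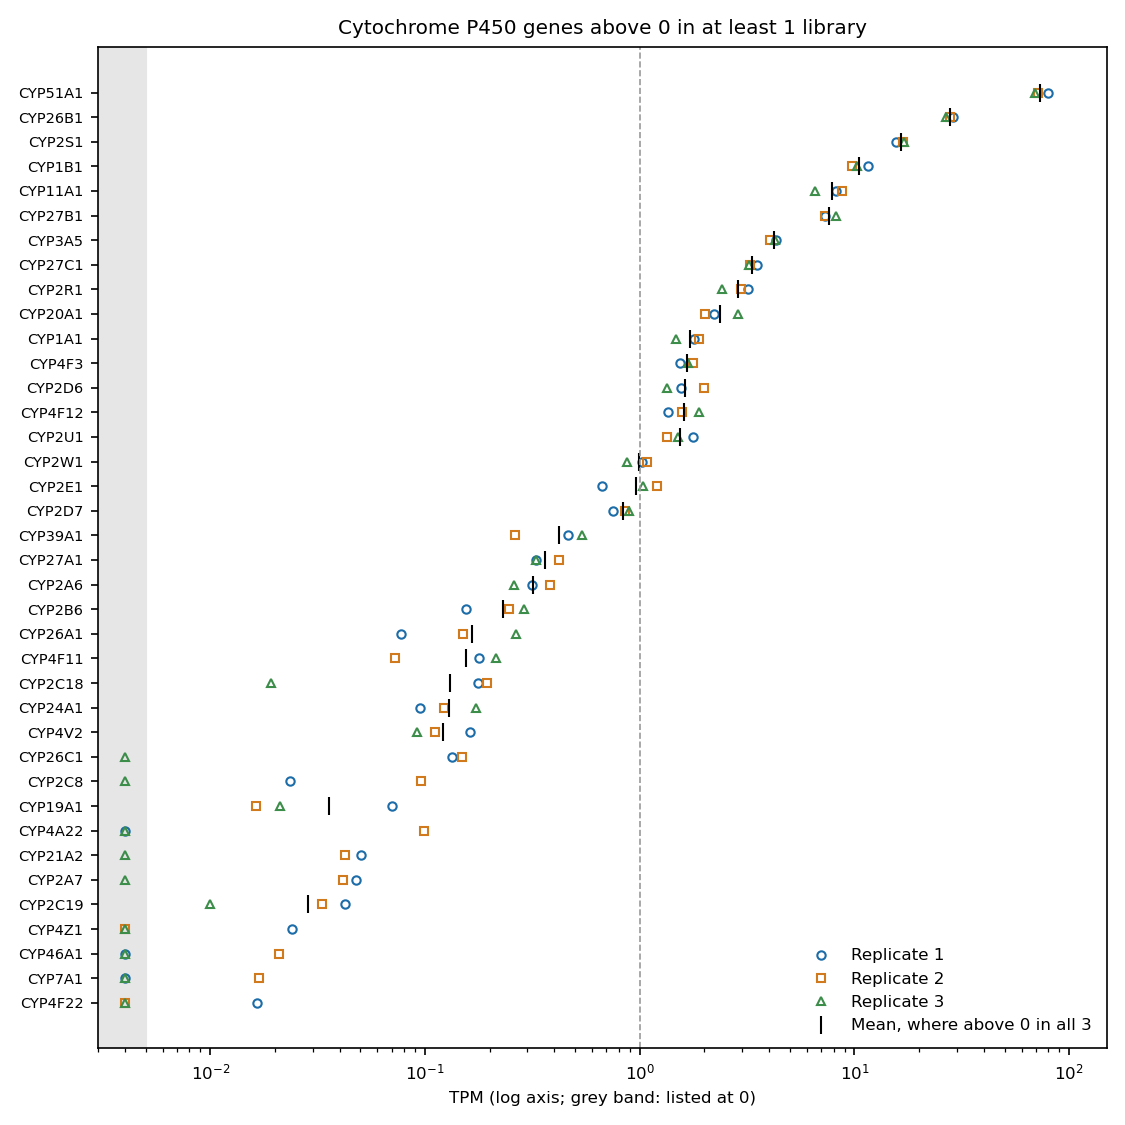
TPM on a log axis of members above 0 in at least 1 library, ordered by mean, with 1 symbol per library and a tick for the mean where all 3 libraries were above 0. CYP51A1 lies at 69.1 to 79.5 TPM in all 3 libraries. The symbols of all 3 libraries lie right of the dashed line at 1 TPM for 15 members, and the libraries spread apart below about 0.5 TPM.

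CYP51A1, the lanosterol demethylase of cholesterol synthesis, had 79.5, 71.9 and 69.1 TPM in replicates 1, 2 and 3, a mean of 73.5 ± 5.39 TPM (SD, n = 3). It exceeded 85.1% of the gene rows that averaged 1 TPM or more, and its lowest library was above the highest of every other member. Its row, on chromosome 7 from 92112149 to 92134745, overlaps 760 bp of AKAP9, a gene on the other strand with 8.28 ± 0.801 TPM (SD, n = 3). Rows of 7 of the 15 members at or above 1 TPM overlap some other gene row, and their reads may be shared. The remaining 6 members classed under sterols and bile acids had means below 1 TPM. CYP39A1, which hydroxylates an oxysterol, had 0.464, 0.263 and 0.541 TPM in the 3 libraries. CYP27A1, the mitochondrial sterol hydroxylase of the acidic bile acid pathway, had 0.330, 0.422 and 0.330 TPM. CYP7A1, the rate-limiting enzyme of the classic bile acid pathway, and CYP46A1, the cholesterol hydroxylase of brain, were each above 0 in replicate 2 only, with 0.0169 and 0.0208 TPM. CYP7B1 and CYP8B1, which also act in bile acid synthesis, were listed at 0 in all 3 libraries. The levels in this class thus lay almost wholly on the cholesterol-synthesis enzyme, which made up 98.9% of the summed level.

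The 7 members that act on vitamins A and D summed to 42.0 ± 1.03 TPM (SD, n = 3), and 4 of them reached 1 TPM in every library. CYP26B1, which clears retinoic acid, had 28.8, 27.8 and 26.7 TPM, a mean of 27.8 ± 1.05 TPM (SD, n = 3). Its relative CYP26A1, the retinoic acid hydroxylase usually linked to liver, had 0.0772, 0.151 and 0.266 TPM, and CYP26C1 had 0.133, 0.149 and 0 TPM. CYP26B1 was above CYP26A1 in 3 of 3 libraries, and the difference was 4.63 ± 0.17 on the log2(TPM + 1) scale (SD, n = 3). This understates the ratio and its spread because CYP26A1 is low. The ratio was 374, 184 and 100 in replicates 1, 2 and 3. With 0.1 TPM added in place of 1 the difference was 6.78 ± 0.58 (SD, n = 3). An exact permutation test over sign flips, two-sided, gave p = 0.25, and 0.25 after Benjamini-Hochberg adjustment over the 5 pairs that had a value. With 3 libraries this test cannot give a smaller p, so no pair could pass a threshold of 0.05.

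CYP27B1, which makes the active form of vitamin D, had 7.26, 7.30 and 8.24 TPM, a mean of 7.60 ± 0.555 TPM (SD, n = 3). CYP24A1, which breaks that form down, had 0.0947, 0.122 and 0.173 TPM. CYP24A1 was lower than CYP27B1 in 3 of 3 libraries, by a log2(TPM + 1) difference of -2.93 ± 0.05 (SD, n = 3), with p = 0.25 in the same exact test and 0.25 after adjustment. With 0.1 TPM added in place of 1 the difference was -5.08 ± 0.15 (SD, n = 3). CYP2R1, which carries out the first hydroxylation of vitamin D, had 3.20, 2.95 and 2.43 TPM. CYP27C1, a retinoid desaturase, had 3.50, 3.26 and 3.23 TPM, and its lowest library was above the highest of CYP2R1. The vitamin D receptor gene VDR had 17.7, 14.8 and 17.5 TPM, and the retinoic acid receptor genes RARA and RARG had 14.4 ± 0.440 and 22.0 ± 1.28 TPM (SD, n = 3), while RARB had 0.401 ± 0.0666 TPM (SD, n = 3).

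The 17 members classed as oxidizing foreign compounds summed to 19.8 ± 0.797 TPM (SD, n = 3), or 11.7% of the P450 level. Only CYP1B1, CYP3A5, CYP1A1 and CYP2D6 of these 17 reached 1 TPM in every library. CYP1B1, an enzyme of estrogen and polycyclic hydrocarbon oxidation found mainly outside the liver, had 11.5, 9.76 and 10.3 TPM, a mean of 10.5 ± 0.919 TPM (SD, n = 3), so that it fell just short of 10 TPM in replicate 2. CYP1A1, which oxidizes the same hydrocarbons, had 1.78, 1.88 and 1.47 TPM. CYP1A2, its liver-enriched neighbor on chromosome 15, was listed at 0 in all 3 libraries. CYP1B1 was above CYP1A1 in 3 of 3 libraries by 2.09 ± 0.16 on the log2(TPM + 1) scale (SD, n = 3), with p = 0.25 in this exact permutation test and 0.25 after adjustment.

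Among the CYP3A genes, CYP3A5 had 4.31, 4.04 and 4.28 TPM, a mean of 4.21 ± 0.145 TPM (SD, n = 3). CYP3A4, the main drug-oxidizing P450 of adult liver, CYP3A7, its fetal liver counterpart, and CYP3A43 were all listed at 0 in the 3 libraries. The whole 31838 bp of the CYP3A5 row lie inside the row of ZSCAN25, a gene on the other strand with 11.6 ± 0.771 TPM (SD, n = 3). The strand setting of the quantification is not given in the sources used here, so reads of the 2 genes may not have been told apart. Overlap of their exons was not examined. The 30161 bp row of CYP3A7 also lies wholly inside that of ZSCAN25 and was listed at 0. The read-through row CYP3A7-CYP3A51P, outside the naming rule, spans the CYP3A7 row on the same strand. It had 0.106, 0.137 and 0.123 TPM, and reads of CYP3A7 may have gone to it.

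The CYP2 members of this class were low. CYP2D6 had 1.56, 1.99 and 1.33 TPM, and its near-identical pseudogene CYP2D7 had 0.753, 0.857 and 0.893 TPM. Reads shared between these copies could have gone to either row, and how they were divided is not given in the sources used here. The same holds for the close copies among the CYP2A, CYP3A, CYP4A and CYP4F genes and for CYP21A2. CYP2E1, the ethanol-inducible P450, had 0.664, 1.20 and 1.03 TPM and so lay just outside the limit of 1 TPM. CYP2A6, which oxidizes nicotine, had 0.314, 0.383 and 0.260 TPM, and CYP2B6 had 0.155, 0.247 and 0.290 TPM. CYP2C18 had 0.177, 0.194 and 0.0191 TPM, CYP2C19 had 0.0425, 0.0332 and 0.009998 TPM, and CYP2C8 had 0.0235, 0.0959 and 0 TPM. CYP2A13 and CYP2F1, which are known from the airways, were listed at 0 in all 3.

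The 12 members that act on fatty acids and eicosanoids summed to 5.12 ± 0.224 TPM (SD, n = 3), spread over several genes. CYP4F3, a leukotriene hydroxylase, had 1.54, 1.77 and 1.68 TPM, CYP4F12 had 1.36, 1.57 and 1.89 TPM, and CYP2U1 had 1.78, 1.34 and 1.51 TPM. These 3 ranges overlap. CYP4F11 had 0.178, 0.0724 and 0.214 TPM, and CYP4V2, which is mutated in a corneal and retinal dystrophy, had 0.162, 0.112 and 0.0918 TPM. CYP4A22 was above 0 in replicate 2 only, with 0.0988 TPM, and CYP4F22, a ceramide-related hydroxylase of skin, in replicate 1 only, with 0.0164 TPM. CYP2J2, an epoxygenase of arachidonic acid, and CYP4A11, CYP4B1, CYP4F2 and CYP4F8 were listed at 0 in all 3 libraries.

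Of the 6 members that make steroid hormones, CYP11A1 reached 1 TPM in every library and was the only one above 0.1 TPM in any. CYP11A1, the mitochondrial enzyme that cleaves the cholesterol side chain, had 8.17, 8.76 and 6.53 TPM, a mean of 7.82 ± 1.15 TPM (SD, n = 3). Its range overlapped that of CYP27B1, the next member in order. CYP19A1, or aromatase, had 0.0699, 0.0163 and 0.0212 TPM, and CYP21A2 had 0.0506, 0.0425 and 0 TPM. CYP17A1, CYP11B1 and CYP11B2 were listed at 0 in all 3 libraries. Of 7 other genes of steroid synthesis, SRD5A1 had 31.0 ± 1.46 TPM (SD, n = 3). HSD17B1 was listed at 0, 0 and 1.97 TPM, and the rest, among them the cholesterol carrier STAR and the dehydrogenases HSD3B1 and HSD3B2, stayed below 1 TPM in every library. NR5A1, the steroidogenic regulator, was at 0, 0 and 0.0276 TPM.

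Members without a settled class summed to 20.7 ± 0.958 TPM (SD, n = 3), most of it from CYP2S1. CYP2S1, an enzyme of extrahepatic epithelia, had 15.7, 16.9 and 17.0 TPM, a mean of 16.5 ± 0.750 TPM (SD, n = 3), and was the third highest of all members. CYP20A1, an orphan P450, had 2.22, 2.01 and 2.86 TPM. CYP2D7, described above, was also placed here. CYP2W1, a P450 known from colon tumors, had 1.02, 1.08 and 0.869 TPM, just outside the limit, and its 6486 bp row lies inside that of C7orf50 on the other strand, which had 134 ± 3.54 TPM (SD, n = 3). CYP2A7 had 0.0479, 0.0414 and 0 TPM, CYP4Z1 was above 0 in replicate 1 only, with 0.0240 TPM, and CYP4X1 was listed at 0 in all 3.

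**Figure D2:**
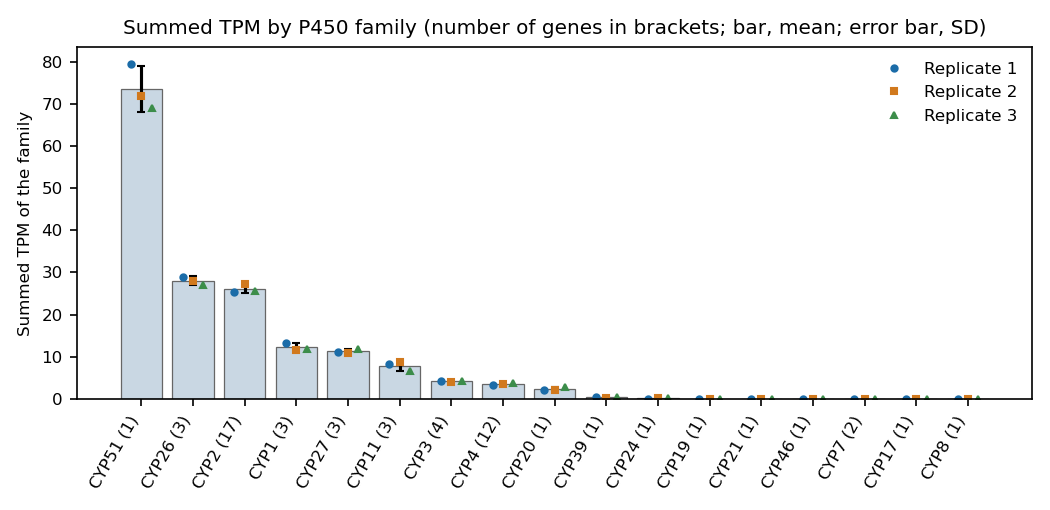
Summed TPM of each of the 17 families, with the number of genes in brackets, the mean as a bar starting at 0, the SD over 3 libraries as an error bar and 1 symbol per library. The single gene of CYP51 stands at 73.5 TPM, the 3 genes of CYP26 at 28.0 TPM and the 17 genes of CYP2 at 26.1 TPM, and 8 families lie below 0.5 TPM.

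By family, CYP51 was followed by CYP26 with 29.0, 28.1 and 27.0 TPM and CYP2 with 25.4, 27.3 and 25.7 TPM, whose ranges overlap. CYP1 had 12.2 ± 0.945 TPM, CYP27 had 11.3 ± 0.449 TPM and CYP11 had 7.82 ± 1.15 TPM (SD, n = 3). In these families most of the level came from 1 gene, with CYP26B1 at 99.1% of CYP26, CYP1B1 at 86.0% of CYP1, CYP27B1 at 67.3% of CYP27 and CYP2S1 at 63.2% of CYP2. CYP4 had 12 members and a sum of only 3.59 ± 0.297 TPM (SD, n = 3).

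Many P450 genes stand side by side as copies of an ancestral gene. Members no more than 200000 bp apart formed 9 clusters with 33 genes, and 23 members stood alone. Of the 33 clustered genes, 6 reached 1 TPM in each library and 13 had a listed 0 in each. Of the 23 standing alone, 9 reached 1 TPM and 4 had a listed 0 throughout. The shares over all gene rows were 33.8% at 1 TPM and 40.7% at 0, and over protein-coding gene rows 59.5% and 20.0%. The clusters hold close copies, such as the CYP2A and CYP4F genes, whose shared reads could have gone to either row. The difference between the groups was not tested. The clustered genes summed to 29.4 TPM, of which CYP2S1 gave 16.5 TPM. The others summed to 140 TPM, of which CYP51A1 gave 73.5 TPM and CYP26B1 gave 27.8 TPM.

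In 2 of the larger clusters, 1 gene at an end carried nearly all of the level. On chromosome 19 from 40843541 to 41207539 (GRCh38), the last of 6 genes, CYP2S1, had 96.6% of the summed TPM, while CYP2A6, CYP2A7, CYP2B6, CYP2A13 and CYP2F1 before it were each below 0.5 TPM. On chromosome 7 from 99648189 to 99867138, CYP3A5 at one end had all of the summed TPM of the members. The read-through row over CYP3A7 is not a member and is not in this sum. In the CYP4F cluster, on chromosome 19 from 15508487 to 15934866, the level lay in the middle, with CYP4F3 and CYP4F12 next to each other. The 5 CYP4 genes on chromosome 1, from 46798998 to 47149738, held no gene at 1 TPM.

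**Figure D3:**
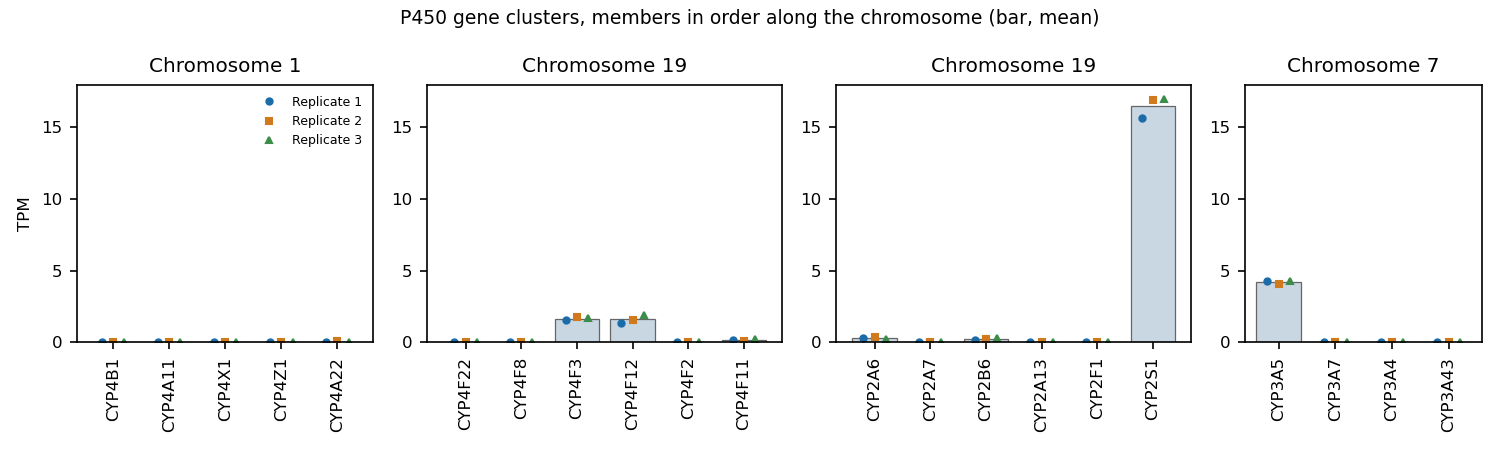
TPM of the members of 4 clusters on chromosomes 1, 7 and 19, in order along the chromosome, with the mean as a bar and 1 symbol per library on a shared axis that starts at 0. CYP2S1 stands alone at 15.7 to 17.0 TPM at the end of its chromosome 19 cluster, and CYP3A5 at 4.04 to 4.31 TPM beside neighbors at 0.

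The sequences before the start sites were then examined. Promoter sequences from RefSeq (GRCh38.p14) were matched by symbol for 39 of the 56 members, and the 250 bases before the start nearest to the 5′ end of the deposited row were used. CYP11B1, CYP11B2, CYP1B1, CYP24A1, CYP27B1, CYP2C18, CYP2D6, CYP2D7, CYP2F1, CYP46A1, CYP4A11, CYP4A22, CYP4F12, CYP7A1, CYP7B1 and CYP8B1 were among those not matched. CpG dinucleotides are dense in the promoters of many broadly expressed genes and sparse in those of many tissue-restricted genes. A stretch of 121 bases, ending 65 bases before the start, is shown 5′ to 3′ for the 3 highest matched members. It is also shown for 2 pairs that share a cluster and differ in level, with each CpG in capitals.
CYP51A1: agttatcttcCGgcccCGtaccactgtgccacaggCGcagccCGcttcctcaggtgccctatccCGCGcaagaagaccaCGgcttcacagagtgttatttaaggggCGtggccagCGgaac
CYP26B1: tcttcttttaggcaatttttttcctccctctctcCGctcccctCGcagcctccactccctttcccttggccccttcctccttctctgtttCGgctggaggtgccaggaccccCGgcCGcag
CYP2S1: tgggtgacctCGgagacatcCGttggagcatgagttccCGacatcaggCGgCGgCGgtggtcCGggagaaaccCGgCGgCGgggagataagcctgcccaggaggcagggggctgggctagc
CYP3A5: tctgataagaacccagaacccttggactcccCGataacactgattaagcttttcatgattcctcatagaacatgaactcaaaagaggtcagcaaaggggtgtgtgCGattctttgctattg
CYP3A4: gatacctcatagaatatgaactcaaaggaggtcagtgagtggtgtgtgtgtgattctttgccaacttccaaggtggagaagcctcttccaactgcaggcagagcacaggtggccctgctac
CYP1A1: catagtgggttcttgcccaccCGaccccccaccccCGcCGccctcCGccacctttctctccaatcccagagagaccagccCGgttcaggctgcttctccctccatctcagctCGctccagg
CYP1A2: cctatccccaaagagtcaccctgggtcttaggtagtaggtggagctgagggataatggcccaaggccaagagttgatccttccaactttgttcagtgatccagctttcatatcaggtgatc

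These stretches lie on the minus strand at chr7:92134542-92134662 for CYP51A1, chr2:72147927-72148047 for CYP26B1, chr7:99680061-99680181 for CYP3A5, chr7:99784249-99784369 for CYP3A4 and chr15:74725593-74725713 for CYP1A1. On the plus strand the stretches lie at chr19:41193034-41193154 for CYP2S1 and chr15:74748660-74748780 for CYP1A2. The start used for CYP51A1 is 268 bp inside the 5′ end of its deposited row. Over the full 250 bases, CYP51A1 had 23 CpG dinucleotides, CYP2S1 had 23, CYP26B1 had 16 and CYP1A1 had 10. CYP3A5 had 2, CYP1A2 had 1 and CYP3A4 had 0.

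A promoter was counted as CpG-rich where the CpG count was at least 0.6 of that expected from its C and G content. This held for 5 of the 11 matched members with at least 1 TPM in all 3 libraries, 5 of the 17 members between, and 1 of the 11 members listed at 0. Over all gene rows with a promoter the share was 50.1%, over those with at least 1 TPM in all 3 libraries 81.2%, and over those at 0 in all 3 libraries 18.6%. The CpG-rich members at or above 1 TPM were CYP51A1, CYP26B1, CYP2S1, CYP20A1 and CYP2U1. CYP2J2, the exception among those at 0, had 19 CpG dinucleotides, and CYP4V2 had the most of all, 29, at 0.122 ± 0.0361 TPM (SD, n = 3). The start used was 6472 bp from the 5′ end of the deposited row for CYP2R1, 20101 bp for CYP19A1, 11706 bp for CYP4Z1 and 3720 bp for CYP2A7. These 4 windows were all counted as not CpG-rich. Shorter distances, of 577 bp for CYP20A1, 414 bp for CYP27A1 and 268 bp for CYP51A1, went with CpG-rich windows inside the deposited rows. Distances of 415 bp for CYP4F3, 387 bp for CYP3A43 and 109 bp for CYP21A2 went with windows that were not CpG-rich. The counts are given as a description.

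**Figure D4:**
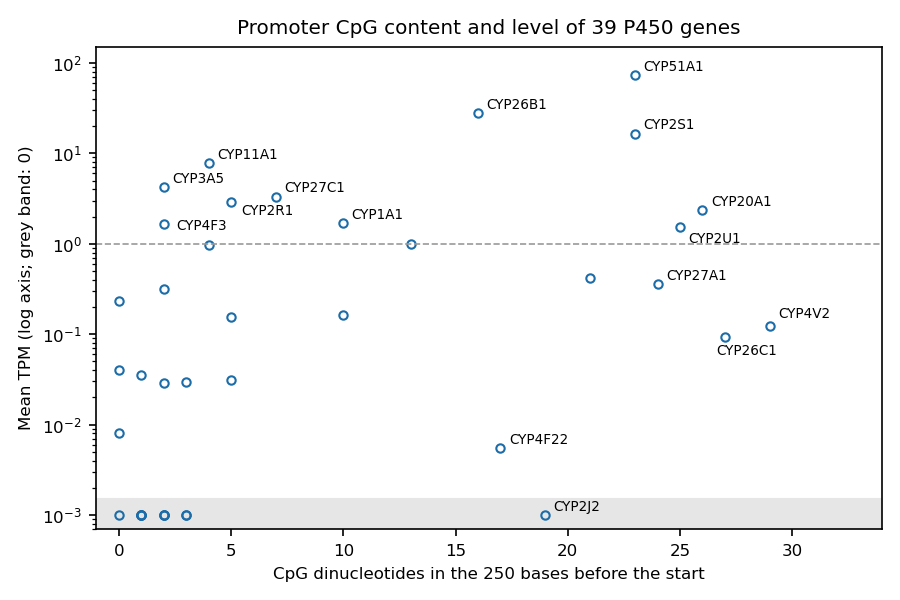
CpG dinucleotides in the 250 bases before the start (horizontal axis) against mean TPM on a log axis for the 39 members with a matched promoter, with members at 0 in the grey band. CYP51A1, CYP26B1 and CYP2S1, with 23, 16 and 23 CpG dinucleotides, lie at the top in that order. CYP11A1 and CYP3A5 lie above 1 TPM with 4 and 2, and CYP4V2 and CYP26C1 lie below 1 TPM with 29 and 27.

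The letters GCGTG, the core that the AHR and ARNT receptor pair is known to bind, were searched on both strands of the same 250 bases. They were found in 9 of the 39 members, or 23.1%, against 33.0% of all gene rows with a promoter. CYP51A1 had 2 matches and CYP1A1 had 1, while CYP1A2 had none in this window. The TATA box letters TATAAA, also on both strands, were found in 14 members, or 35.9%, against 10.9% of all gene rows with a promoter, and these letters cannot overlap a GCGTG match. CYP1A1, CYP1A2, CYP3A4 and CYP26B1 held a match and CYP51A1, CYP2S1 and CYP3A5 did not. Counted from the start, the match began at -32 in CYP1A1 and at -29 in CYP3A4. The 2 matches of CYP1A2 lay close to these positions and overlap each other, as a single stretch was matched on both strands. In CYP26B1 the match began at -248, at the far edge of the 250 bases. A match is given as a description of the sequence only.

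A list of 9 redox partners and associated proteins, 7 of electron transfer and the heme-binding PGRMC1 and PGRMC2, was at 10 TPM or more throughout. POR, the reductase that serves the P450 enzymes of the endoplasmic reticulum, had 47.3, 48.0 and 46.1 TPM. FDXR and FDX1, which pass electrons to the mitochondrial P450 enzymes, had 20.8 ± 1.01 and 27.0 ± 1.60 TPM (SD, n = 3). CYP51A1 was above POR in 3 of 3 libraries by 0.63 ± 0.09 on the log2(TPM + 1) scale, and CYP11A1 differed from FDX1 by -1.67 ± 0.17 (SD, n = 3). Both had p = 0.25 in the exact permutation test, and 0.25 after adjustment. The 8 heme synthesis genes all reached 1 TPM in each library, and ALAS1, its rate-limiting enzyme in liver, had 72.4 ± 0.703 TPM (SD, n = 3).

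Of the 11 other genes of the steps from squalene to cholesterol, 9 were at 10 TPM or more in each library, and the median mean of the 11 was 51.1 TPM. SC5D, a desaturase, and TM7SF2, a reductase, were lower, with 8.91 ± 0.230 and 2.62 ± 0.382 TPM (SD, n = 3). LBR, a reductase also in the list, had 57.7 ± 4.38 TPM (SD, n = 3). EBP had 317 ± 4.83 TPM and DHCR7 had 92.0 ± 2.74 TPM (SD, n = 3), each above CYP51A1 in all libraries. NSDHL had 61.3 ± 2.83 TPM and MSMO1, which removes the next methyl groups, had 33.9 ± 3.67 TPM (SD, n = 3), each below it in all libraries. Of 9 bile acid genes other than P450, 6 reached 1 TPM in every library, led by the peroxisomal HSD17B4 with 66.1 ± 0.826 TPM (SD, n = 3). ACOX2, AKR1D1 and BAAT stayed below 0.1 TPM in every library.

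**Figure D5:**
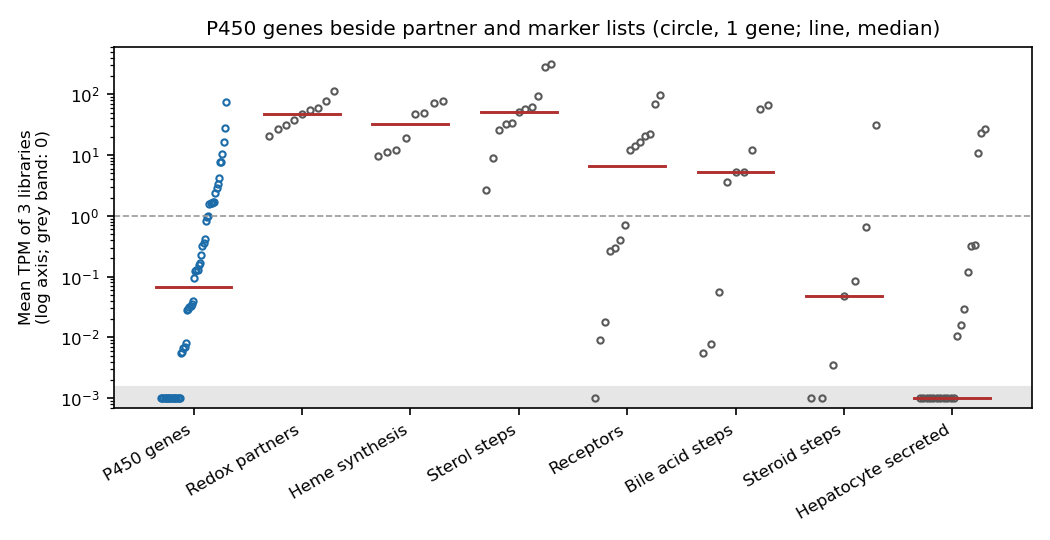
Mean TPM on a log axis of each P450 member and of the genes of 7 partner, pathway and marker lists, with 1 circle per gene, the median as a line and genes at 0 in the grey band. The P450 median lies at 0.0669 TPM and the medians of the redox partners, heme synthesis and sterol lists at 47.2, 32.9 and 51.1 TPM, while the median of the hepatocyte list lies at 0.

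Receptors that govern P450 genes fell into 2 groups. Of 14 listed receptors and partners, 7 were at 10 TPM or more in each library, and the other 7 were below 1 TPM in every library. NR1I2 and NR1I3, the drug-sensing receptors known to drive CYP3A4 and CYP2B6, were at 0.0528, 0 and 0 TPM and at 0.207, 0.351 and 0.230 TPM. NR1H4, the bile acid receptor, had 0.699 ± 0.0907 TPM (SD, n = 3). AHR, the receptor that drives CYP1 genes, had 13.8, 11.6 and 11.5 TPM and its partner ARNT had 20.8 ± 1.33 TPM (SD, n = 3). AHRR, the AHR repressor and itself a target of AHR, had 101, 100.2 and 94.4 TPM, which was 8.03 ± 0.700 times the level of AHR within a library (SD, n = 3). The other listed AHR targets TIPARP and NQO1 had 32.8 ± 1.32 and 204 ± 4.44 TPM (SD, n = 3), while CYP1A1 and CYP1B1 had 1.71 ± 0.215 and 10.5 ± 0.919 TPM (SD, n = 3).

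The highest library was 1.07 to 1.49 times the lowest for the 15 members averaging 1 TPM or more. It was over 1.5 times the lowest for 0 of them, against 5.63% of the 13753 gene rows with such a mean. CYP3A5 had the smallest spread and CYP2D6 the largest. Their median coefficient of variation was 8.74%, and that of the 12262 gene rows with a mean from 1 to 100 TPM was 6.46%. Below 1 TPM the libraries differed more, and 6 members were above 0 in 1 library and 4 in 2 libraries. The coverage of these 10, the mean read depth over the gene, was at most 0.913, or less than 1 read per base. Replicate 3 listed 26 members at 0, against 21 and 20 in replicates 1 and 2. It also had the lowest of the highest ratios of coverage to FPKM, a relative measure of depth, with 11.5 against 13.3 and 12.8. The part of depth in the listed zeros was not tested.

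In the order of mean TPM, CYP51A1, CYP26B1, CYP2S1 and CYP1B1 were each apart from the next member in all libraries. CYP11A1 and CYP27B1 overlapped, as did CYP2R1 and CYP20A1. CYP1A1, CYP4F3, CYP2D6, CYP4F12 and CYP2U1 overlapped along the order. Coverage kept the order of the 4 highest members but not of all others. CYP2R1 was at rank 9 by TPM and at rank 18 by coverage, and CYP1A1 moved from rank 11 to rank 9. For CYP2R1 the ratio of coverage to FPKM was 0.202 of the highest in its library, and RefSeq lists 34 transcripts for it. For CYP1B1, with 1 transcript, the ratio was 1.00. Whether TPM depends on how the transcripts of a gene were combined was not tested.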

How the data were processed

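Polyadenylated RNA of 3 libraries was sequenced with 150 bp paired-end reads. Per the labels, the authors filtered reads with FastQC 0.11.8 and Trim Galore 0.6.2 and mapped them to GRCh38 with STAR 2.6.1a. Per the labels, StringTie is also named in the submitters' processing notes, without a version or strand setting. The coverage deposited by the authors is a signal, the mean read depth over a gene, not scaled for library size. The FPKM deposited by the authors is scaled for gene length and library size, and the TPM deposited by the authors sums to 1000000 in each library.

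Rows with the same name, strand and coordinates in all 3 tables were joined (43389 rows), and the 4069 on references other than primary chromosomes were left out of all counts. TPM was used as deposited. Values are given per library and as mean ± SD, with n = 3 libraries, and there was no comparison between conditions. Of 10 pairs planned, the 5 in which both genes were above 0 in every library were compared within libraries on the log2(TPM + 1) scale. Members with a mean of at least 1 TPM were named with every value, and other members with their values or as listed at 0. The members, lists and classes were chosen with earlier results of these data known. Some genes of the set and its lists are not reported here by name. The range calculation was tested on simulated data, and the exact test on small fixed sets of differences whose p was known. Alternatives were other minimum levels, scalings, pseudocounts, FPKM, coverage and leaving out each replicate. Python 3.11.15, numpy 2.4.6, pandas 2.3.3, scipy 1.17.1, statsmodels 0.14.6 and matplotlib 3.10.9 were used.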

Additional observations from a re-analysis of the deposited data

How the results depend on the processing

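The 15 members with at least 1 TPM in all libraries became 9 with a minimum of 1 FPKM, because 1 FPKM is about 2 TPM here, and a minimum of 2 TPM gave 10. The other minimum levels and scalings gave 15 to 22. Scaling without mitochondrially encoded genes raised the summed TPM of the members from 170 to 212 and every gene by a mean factor of 1.25, since it removes a share of TPM taken mainly by the mitochondrial tRNA row TRNC. Without CYP51A1 the sum was 96.3 TPM. With each replicate left out, the number of members with at least 1 TPM ranged from 15 to 16, with at least 10 TPM from 3 to 4, and listed at 0 from 18 to 20, and the summed TPM ranged from 166 to 173. The differences of the 5 pairs kept their direction with a pseudocount of 0.1 TPM, by coverage and with each replicate left out. No paired analysis was possible because the libraries form 1 group, so replicate numbers could pair no samples across groups. The 5 gene pairs were compared within each library. The tables hold no counts, so the lowest level that the reads could show is unknown.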

Other observations

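Rows outside the naming rule that begin with CYP were low. Of 10 pseudogene rows, none reached 1 TPM in every library and 3 had a listed 0 throughout, with CYP2T1P the highest at 0.846, 0.875 and 1.17 TPM. The read-through row CYP3A7-CYP3A51P, which spans all of the CYP3A7 row on the same strand, had 0.106, 0.137 and 0.123 TPM, while CYP3A7 itself was listed at 0. The antisense rows CYP1B1-AS1 and CYP51A1-AS1 had 0.384 ± 0.0931 and 0.191 ± 0.0661 TPM (SD, n = 3). All 10 rows of CYP21A2, CYP21A1P, CYP2D6 and CYP2D7 on alternate contigs were listed at 0. Of the P450 enzymes whose symbols lack CYP, the thromboxane synthase TBXAS1 had 0.122, 0.307 and 0.577 TPM, and the prostacyclin synthase PTGIS was listed at 0 in all 3 libraries.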
